A study of Mus musculus with 16 samples.

Results

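The 9 genes described here encode the enzymes and regulatory subunits that build and break down glycogen in liver: *Gys2*, *Pygl*, *Ppp1r3b*, *Ppp1r3c*, *Ppp1r3g*, *Gbe1*, *Ugp2*, *Gyg* and *Phka2*. They were found by gene symbol among the 46078 genes of the count table, and all 9 passed the filter on low counts that left 15075 genes to be tested. Polyadenylated liver RNA was sequenced from mice of the strain labelled C56B6/J, for which no engineered allele is named. Males of 8 weeks were put on a control diet (CD) or on a high-fat diet (HFD) with 60% of calories from fat, and stayed on it for 16 weeks. Livers were taken from mice fed ad libitum or fasted for 16 h. This gave 4 groups (CD fed, CD fast, HFD fed and HFD fast) of 4 livers, with 1 library from each. The question was how transcripts of glycogen metabolism responded to fasting on each diet and to the diet in each feeding state.

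Glycogen is the branched glucose polymer that the liver lays down after a meal and spends during a fast. UDP-glucose pyrophosphorylase (*Ugp2*) makes the activated sugar, glycogenin (*Gyg*) primes a new chain, glycogen synthase (*Gys2* in liver) lengthens it and the branching enzyme (*Gbe1*) branches it. Glycogen phosphorylase (*Pygl* in liver) releases glucose units and is switched on by phosphorylase kinase, of which *Phka2* encodes the liver form of the regulatory alpha subunit. The Ppp1r3 proteins bring protein phosphatase 1 to the glycogen particle, where it activates the synthase and inactivates the phosphorylase. Enzyme activity is largely set by phosphorylation and by metabolites. Neither these nor the glycogen content was measured by RNA-seq.

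Library totals ranged from 41364448 to 57583153 counts. Values are given as CPM, the count relative to the TMM-scaled library total (TMM is a trimmed mean of log ratios between libraries). A floor of 3 counts corresponded to 0.0536 to 0.0767 CPM, covering counting error only. The summed level of 5 hepatocyte markers (*Alb*, *Apoa1*, *Ttr*, *Tat* and *Cps1*) was 101874 to 134723 CPM in fed and 86209 to 107172 CPM in fasted CD livers, with overlap, and 106524 to 135795 CPM in fed and 68792 to 100064 CPM in fasted HFD livers, without overlap. *Alb* made up 67.8% to 83.0% of this sum. Without it the 4 others summed to 19410 to 26863 CPM in fed and 20464 to 27753 CPM in fasted CD livers, and to 19293 to 23143 CPM in fed and 14896 to 17014 CPM in fasted HFD livers. After fasting in CD the mean level was lower for *Alb* and *Ttr* and higher for *Apoa1*, *Tat* and *Cps1*, and after fasting in HFD it was lower for all 5. The muscle markers, looked at because *Gys1*, *Pygm* and *Ppp1r3a* are high in muscle, summed to at most 1.04 CPM. *Ckm* was at 0 in every library of 3 groups and reached 0.0219 CPM in HFD fed. The sum over 5 endothelial markers was 155 to 199 CPM in CD fast and 211 to 237 CPM in CD fed, without overlap. The sums over 5 Kupffer cell markers (139 to 216 against 209 to 357 CPM) and 5 stellate cell markers (114 to 190.0 against 182 to 233 CPM) were also lower on average in CD fast, with overlapping ranges. In HFD fast the stellate cell sum (205 to 299 CPM) lay above all CD fast libraries, and the Kupffer cell (179 to 322 CPM) and endothelial sums (185 to 246 CPM) were higher on average than in CD fast, with overlap. Of 5 adipocyte markers *Car3*, which liver also expresses, made up nearly all of the sum, with 2087 to 4261 CPM in CD fed and 157 to 1204 CPM in CD fast, without overlap. *Adipoq*, *Plin1* and *Lep* were at most 0.976 CPM in any library. The highest *Adipoq* (0.976 CPM) and *Lep* (0.781 CPM) were in HFD fast library 1 and the highest *Cfd* (70.1 CPM, at most 14.9 in the other libraries) in HFD fast library 2. The part of these marker differences in the fasting and diet differences below was not tested. In whole liver, fewer cells of a type and less RNA per cell cannot be told apart.

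Fasting on the control diet moved *Pygl*, *Ppp1r3b* and *Gbe1* down and *Gys2* and *Ppp1r3g* up, so that 5 of the 9 genes passed an adjusted p of 0.05. Of all genes tested, 25.2% passed in this comparison, 13.7% higher and 11.5% lower after fasting. The median absolute log2 fold change was 1.18 over the 9 genes and 0.25 over all genes tested. After fasting on HFD 1 of the 9 genes passed, *Pygl*, which was lower. The background there was 8.86%, with 4.78% higher and 4.07% lower, and the median absolute log2 fold change was 0.42 over the 9 genes against 0.19 over all genes. Fold changes and adjusted p-values are from the edgeR quasi-likelihood test, with Benjamini-Hochberg adjustment over all 15075 genes.

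**Figure D1:**
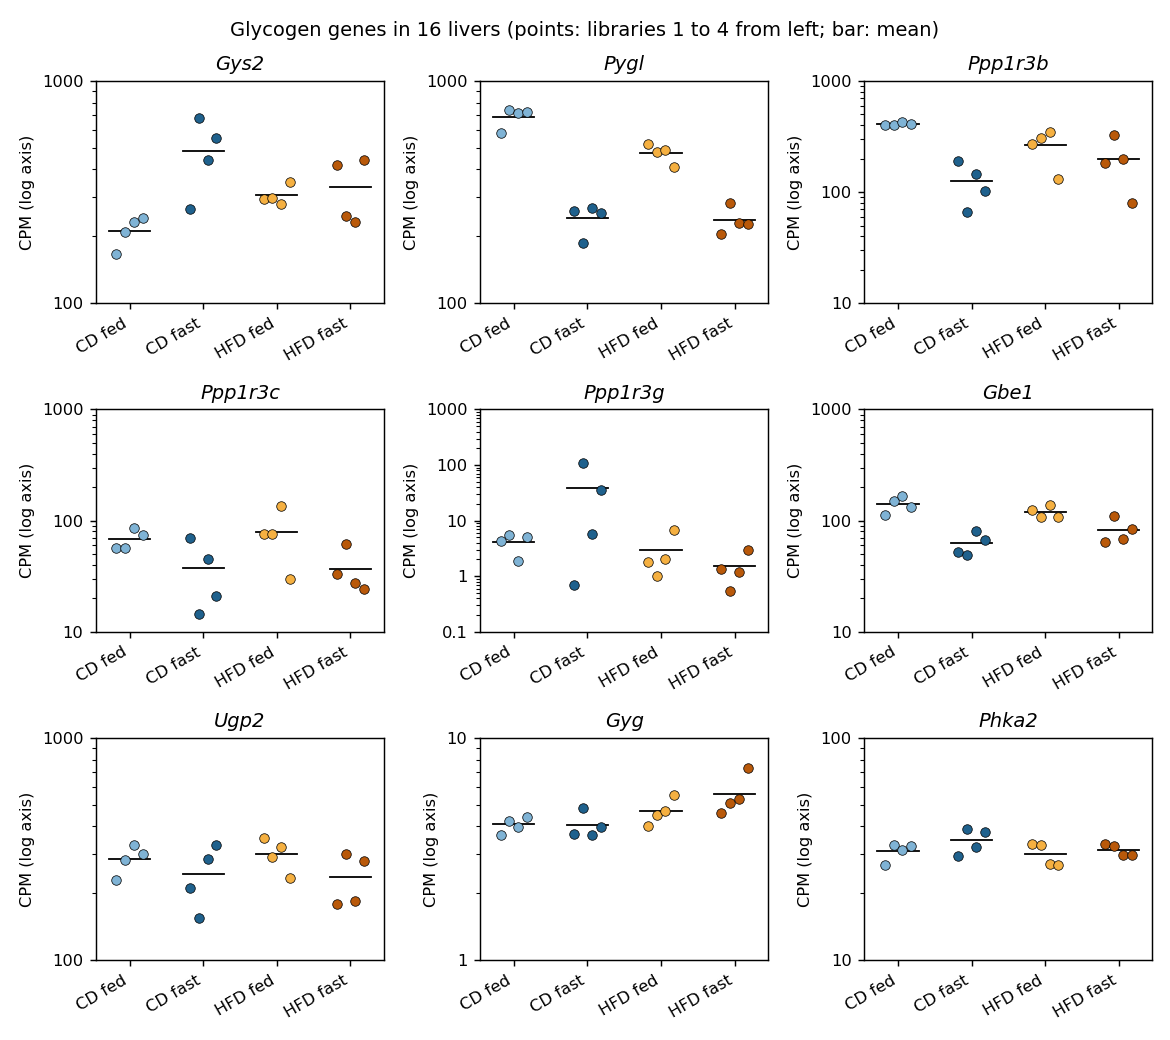
CPM (log axis) of the 9 glycogen genes in each library of CD fed, CD fast, HFD fed and HFD fast mice (4 libraries each), with libraries 1 to 4 from left to right and a bar at the group mean. *Pygl* fell after fasting on both diets with no overlap between fed and fasted libraries, whereas *Ppp1r3g* in CD fast ran from 0.684 to 110.3 CPM.

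Per kilobase of exon, *Pygl* had the highest mean level of the 9 genes in CD fed livers (100.3 ± 10.4 CPM per kb, SD, n = 4), ahead of *Ugp2* (93.1 ± 13.5) and *Gys2* (79.8 ± 12.6). The ranges of neighbours in this order overlapped down to *Ppp1r3b* (66.0 ± 1.77). *Gbe1* (26.4 ± 4.41) and *Ppp1r3c* (25.2 ± 5.32) came next and overlapped each other but not *Ppp1r3b*. *Phka2* lay at 5.09 ± 0.47, and *Gyg* (1.74 ± 0.14) and *Ppp1r3g* (1.55 ± 0.61) were lowest and overlapped. In the other 3 groups *Gys2* had the highest mean, at 182.6 ± 66.1 for CD fast, 115 ± 11.7 for HFD fed and 126 ± 41.7 for HFD fast, and *Ugp2*, whose range overlapped that of *Gys2* each time, came second. These levels depend on the length used. Per kilobase of the longest annotated mRNA, which is 2992 bases for *Pygl* against 6895 bases of summed exons, the *Pygl* mean in CD fed was 231 CPM per kb and the *Gys2* mean, with 2657 bases by either length, stayed at 79.8. By that length *Pygl* also had the higher mean in HFD fed (159 against 115), and *Gys2* led in both fasted groups by either length.

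*Gys2* (ENSMUSG00000030244, GRCm38 chr6:142422613-142473109, minus strand) encodes the liver glycogen synthase. In CD fed its levels were 166, 209, 232 and 241 CPM in libraries 1 to 4, and in CD fast 266, 679.8, 442 and 553 CPM. The groups did not overlap, although the lowest fasted library came close to the highest fed one. The mean rose from 212 ± 33.6 to 485 ± 176 CPM (SD, n = 4), a log2 fold change of 1.19 (SE 0.26, 95% interval 0.65 to 1.74, edgeR adjusted p = 0.00365). On HFD the fed libraries held 293, 299, 279 and 351 CPM and the fasted ones 419, 247, 232 and 442 CPM. Here 2 fasted libraries lay above and 2 below every fed library, and the log2 fold change was 0.13 (95% interval -0.40 to 0.67, adjusted p = 0.779). All 4 HFD fed livers exceeded all 4 CD fed livers, but the difference of 0.53 on the log2 scale (95% interval -0.01 to 1.07) did not pass the test (adjusted p = 0.230). Between fasted livers the log2 fold change for HFD was -0.53, with overlapping libraries (adjusted p = 0.196).

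*Pygl* (ENSMUSG00000021069, chr12:70190811-70231488, minus strand) encodes the liver glycogen phosphorylase. Its CD fed libraries held 585, 738, 718 and 727 CPM and its CD fast libraries 261, 188, 267 and 255 CPM. Each fasted library was below each fed one by a wide gap. The log2 fold change was -1.51 (SE 0.13, 95% interval -1.79 to -1.23, edgeR adjusted p = 4.27e-06), so that the fasted level was 0.351 times the fed one. On HFD the levels were 522, 477, 491 and 409 CPM in fed and 205, 284, 229.7 and 228 CPM in fasted livers, again without overlap (log2 fold change -1.01, SE 0.13, adjusted p = 0.000505). In the fed state *Pygl* was the gene of the 9 that differed between diets. Every HFD fed library was below every CD fed one, with a log2 fold change of -0.54 (SE 0.13, 95% interval -0.82 to -0.27, adjusted p = 0.0200). This call was lost without CD fed library 2 (log2 fold change -0.51, adjusted p = 0.0640) and without HFD fed library 4 (-0.48, 0.0531). The fasted means were 243 ± 36.9 CPM in CD and 237 ± 33.5 CPM in HFD, with a 95% interval of the log2 difference of -0.31 to 0.24 (adjusted p = 0.891).

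**Figure D2:**
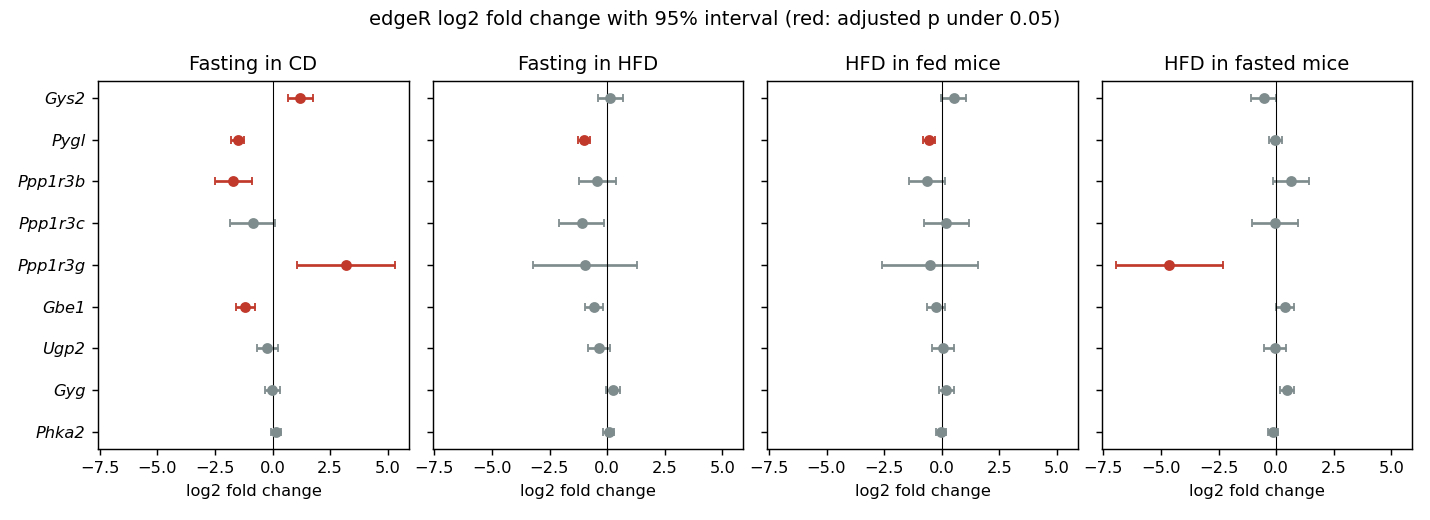
Log2 fold change (points) with 95% interval (bars) of the 9 genes in the 4 pairwise comparisons, from the edgeR fit over 16 libraries, in red where the adjusted p was under 0.05. Of the 9 genes, 5 are red for fasting in CD, and 1 in each of the other 3 panels, with the widest intervals for *Ppp1r3g*.

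The ratio of *Gys2* to *Pygl* counts within a library does not depend on how libraries are scaled. It was 0.284, 0.283, 0.323 and 0.332 in CD fed and 1.02, 3.62, 1.66 and 2.17 in CD fast. In HFD fed it was 0.562, 0.626, 0.569 and 0.857, and in HFD fast 2.05, 0.868, 1.01 and 1.94. Counts of the phosphorylase thus exceeded those of the synthase in all 8 fed libraries, and the reverse held in 7 of the 8 fasted ones, the exception being HFD fast library 2. The log2 ratio rose by 2.65 after fasting in CD and by 1.09 in HFD, and it was higher by 1.08 in HFD fed than in CD fed. Each of these had an exact two-sided permutation p of 0.0286, the smallest that the 70 arrangements of 4 against 4 allow (0.0381 after Benjamini-Hochberg adjustment over 4 comparisons). When 1 of its 8 libraries was left out, the difference after fasting in HFD stayed between 0.89 and 1.30 with fed and fasted libraries apart. The exact permutation p was then 0.0571 in 6 of the 8 cases and 0.0286 without HFD fast library 2 or 3. For the other 2 differences it was 0.0286 without each of their 8 libraries. With 3 libraries left in 1 group and the groups apart, this p can only take its lowest values, so it does not measure stability. In fasted livers the log2 ratio on HFD was -0.48 relative to CD (exact permutation p = 0.371). Whether the fasting difference in the ratio itself differs between diets was not tested. Per kilobase of exon the log2 ratio on CD was -0.34 ± 0.12 in fed and 2.31 ± 0.76 in fasted livers, and on HFD 0.74 ± 0.28 in fed and 1.83 ± 0.64 in fasted livers (SD, n = 4). The diet comparison in fed livers shares the CD fed libraries with the fast on CD and the HFD fed libraries with the fast on HFD.

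**Figure D3:**
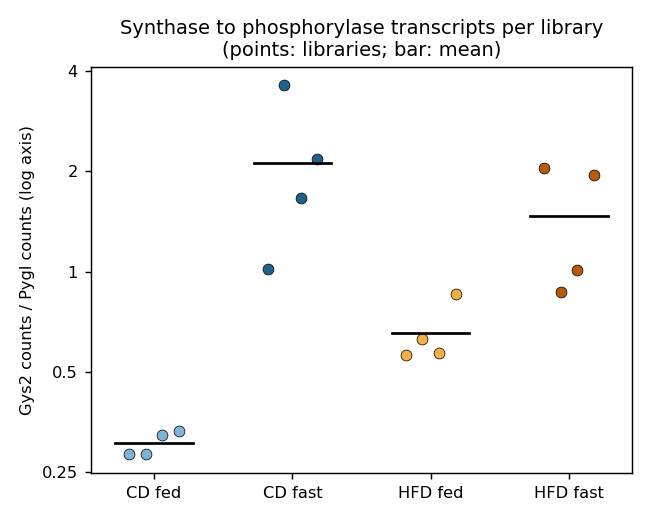
Counts of *Gys2* divided by counts of *Pygl* in each library (log axis), with a bar at the mean of each group of 4. The CD fed libraries lie between 0.283 and 0.332 and the HFD fed libraries between 0.562 and 0.857, below all fasted libraries of their own diet.

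*Gbe1* (ENSMUSG00000022707, chr16:70313949-70569716, plus strand) encodes the glycogen branching enzyme. In CD fed it was at 113, 150.2, 168 and 134 CPM and in CD fast at 52.0, 48.6, 81.5 and 67.6 CPM. The groups did not overlap, and the log2 fold change was -1.18 (SE 0.19, 95% interval -1.58 to -0.78, edgeR adjusted p = 0.000452). On HFD the fed libraries held 125, 108, 139.5 and 107 CPM and the fasted ones 64.7, 109, 69.0 and 84.7 CPM. HFD fast library 2 lay within the fed range and the other 3 below it (log2 fold change -0.55, 95% interval -0.94 to -0.16, adjusted p = 0.0757). Without that library the adjusted p was 0.0253, and the DESeq2 test on all libraries gave 0.0352. Neither diet comparison passed for *Gbe1*: the log2 fold change was -0.24 in fed livers (adjusted p = 0.490) and 0.39 in fasted livers (0.197).

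The promoters of *Pygl*, *Gbe1* and *Ppp1r3g* are shown because these 3 of the genes called after fasting in CD have an entry in the RefSeq promoter table used (GRCm38.p6). Of the 9 genes, 7 had an entry (8 promoters, since *Ugp2* has 2). *Gys2* and *Ppp1r3b* had none. Each line gives the 250 bases before the start site, 5′ to 3′ on the strand of the gene, at chr12:70227684-70227933 (minus), chr16:70313699-70313948 (plus) and chr13:35967656-35967905 (plus). Capitals mark exact matches to 6 motifs searched on both strands.
Pygl: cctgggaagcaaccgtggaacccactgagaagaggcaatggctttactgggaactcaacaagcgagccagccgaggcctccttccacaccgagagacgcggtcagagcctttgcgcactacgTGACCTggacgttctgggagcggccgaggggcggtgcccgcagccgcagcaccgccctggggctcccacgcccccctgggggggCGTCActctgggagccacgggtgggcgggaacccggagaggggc
Gbe1: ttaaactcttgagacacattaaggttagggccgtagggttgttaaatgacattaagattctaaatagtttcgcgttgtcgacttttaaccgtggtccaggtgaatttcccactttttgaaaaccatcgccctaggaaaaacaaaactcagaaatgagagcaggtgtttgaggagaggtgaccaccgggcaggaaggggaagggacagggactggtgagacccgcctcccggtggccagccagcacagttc
Ppp1r3g: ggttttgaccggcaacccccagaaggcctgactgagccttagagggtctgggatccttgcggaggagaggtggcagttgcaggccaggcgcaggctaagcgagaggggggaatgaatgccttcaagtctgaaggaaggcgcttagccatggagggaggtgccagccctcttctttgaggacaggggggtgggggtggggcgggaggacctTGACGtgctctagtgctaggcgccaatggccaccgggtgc

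The motifs were TGACGTCA (cAMP response element), TGACG (its shorter form, contained in the longer), CACGTG (E box), TGTTTAC (forkhead), AGAACA (1 arm of the glucocorticoid receptor element) and AGGTCA (1 repeat unit of nuclear receptor elements). The search ran from 250 bases before to 50 bases after the start. *Pygl* held the shorter cAMP element, as CGTCA on the strand shown, beginning 44 bases before the start, and the nuclear receptor repeat unit, as TGACCT, 128 bases before it. *Ppp1r3g* held TGACG beginning 40 bases before the start. *Ppp1r3c* held CACGTG 104 bases before the start and *Phka2* the glucocorticoid receptor arm, as TGTTCT, 153 bases before it. In *Gyg* CACGTG and TGACG overlapped just after the start, beginning at bases 9 and 13. *Gbe1* and *Ugp2* held none of the 6 in this window. Of all 32851 promoters in the table, 20.8% held TGACG, 16.3% AGGTCA, 7.15% CACGTG, 19.0% AGAACA, 3.65% TGTTTAC and 1.79% TGACGTCA. These matches are descriptions of letters and not sites of binding. The *Pygl* and *Ppp1r3g* start sites of this table lie inside the gene spans given here, which come from GENCODE and include exons further upstream.

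*Ppp1r3b* (ENSMUSG00000046794, chr8:35375739-35388139, plus strand) encodes the glycogen-targeting subunit that is abundant in liver. The 4 CD fed libraries agreed closely, at 404, 402, 426 and 408 CPM (coefficient of variation 2.68%). The CD fast libraries held 189, 66.7, 145 and 102 CPM, all below the fed ones. The log2 fold change was -1.71 (SE 0.38, 95% interval -2.52 to -0.89, edgeR adjusted p = 0.00475). In HFD fed livers the levels were 270.5, 307, 349 and 131 CPM, all below the CD fed range, yet with a log2 fold change of -0.63 (95% interval -1.43 to 0.16) the difference did not pass (adjusted p = 0.336). The HFD fast libraries held 184, 328, 199 and 79.6 CPM and overlapped both HFD fed (log2 fold change -0.42, adjusted p = 0.510) and CD fast (0.65, adjusted p = 0.287). The coefficient of variation was 35.7% in HFD fed and 51.4% in HFD fast.

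*Ppp1r3c* (ENSMUSG00000067279, chr19:36731731-36736653, minus strand) encodes a targeting subunit found in many tissues. It was at 56.6, 57.1, 86.4 and 74.6 CPM in CD fed and at 69.1, 14.4, 45.6 and 21.1 CPM in CD fast. On HFD the fed livers held 75.6, 75.3, 135 and 29.6 CPM and the fasted livers 33.1, 61.3, 27.2 and 24.5 CPM. Fed and fasted libraries overlapped on both diets, and neither log2 fold change passed (-0.87, adjusted p = 0.188 in CD, and -1.11, adjusted p = 0.150 in HFD). The 95% intervals, -1.86 to 0.12 and -2.11 to -0.11, leave room for a fall of the size seen for *Ppp1r3b*. For the diet the log2 fold change was 0.20 (-0.78 to 1.18) in fed and -0.04 (-1.03 to 0.95) in fasted livers.

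*Ppp1r3g* (ENSMUSG00000050423, chr13:35958839-35970388, plus strand) encodes a further targeting subunit and showed the widest spread of the 9 genes. CD fed libraries held 4.25, 5.60, 1.84 and 4.98 CPM. CD fast libraries held 0.684, 110.3, 5.73 and 35.4 CPM, which correspond to 29, 4311, 291 and 1625 counts, so that the highest was 161 times the lowest. CD fast library 1 lay below every fed library and the other 3 above. The log2 fold change was 3.19 (95% interval 1.07 to 5.30, edgeR adjusted p = 0.0290). Without CD fast library 2 the log2 fold change was 1.74 (adjusted p = 0.184). Without any 1 of the 4 CD fed libraries it stayed between 2.94 and 3.36, with an adjusted p between 0.0556 and 0.0740. With limma-voom the log2 fold change was 1.48 (adjusted p = 0.397), and the fit of only these 2 groups gave 3.18 (0.0674).

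On HFD, *Ppp1r3g* was at 1.82, 1.03, 2.08 and 6.86 CPM in fed and at 1.35, 0.544, 1.19 and 2.97 CPM in fasted livers. No HFD library reached the levels of the CD fast libraries 2 and 4, and the fasting difference on HFD was -0.96 on the log2 scale with a 95% interval of -3.20 to 1.28 (adjusted p = 0.608). Without HFD fed library 4 it was -0.11. Between fasted livers *Ppp1r3g* was lower on HFD, with a log2 fold change of -4.63 (SE 1.09, edgeR adjusted p = 0.0204), although CD fast library 1 lay within the HFD range. The adjusted p was 0.0640 without CD fast library 2 (log2 fold change -3.19), 0.0618 without HFD fast library 3 (-4.54), 0.0842 in the fit of the 2 groups alone (-4.63) and 0.267 with limma-voom (-3.05). In fed livers the log2 fold change for the diet was -0.49 (95% interval -2.58 to 1.60, adjusted p = 0.816), and -1.34 without HFD fed library 4.

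The targeting subunits' shares of their summed level differed between groups and between libraries. In CD fed, *Ppp1r3b* made up 70.05% ± 3.10 of the summed level per kilobase of exon of the 7 Ppp1r3 genes *Ppp1r3a* to *Ppp1r3g*, *Ppp1r3c* 26.5% ± 3.75 and *Ppp1r3g* 1.67% ± 0.71 (SD, n = 4). In CD fast, *Ppp1r3g* held 0.440%, 69.3%, 4.73% and 33.1% in libraries 1 to 4, and *Ppp1r3b* 52.7%, 18.2%, 51.8% and 41.5%. All 4 CD fast and all 4 HFD fed libraries (51.6% to 61.9%) had a smaller *Ppp1r3b* share than any CD fed library (66.7% at the lowest). The *Ppp1r3b* share was 57.3% ± 4.30 in HFD fed and 63.4% ± 8.56 in HFD fast, and *Ppp1r3g* stayed at or below 6.93% in all 8 HFD libraries. On CD the summed level of the 7 genes was 88.9 to 103 CPM per kb in fed and 39.6 to 59.0 in fasted livers, and on HFD 36.7 to 109 in fed and 25.2 to 78.4 in fasted livers. These shares are a description with no test. With the longest mRNA in place of all exons the mean *Ppp1r3b* share was 76.4% in CD fed and 47.5% in CD fast.

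**Figure D4:**
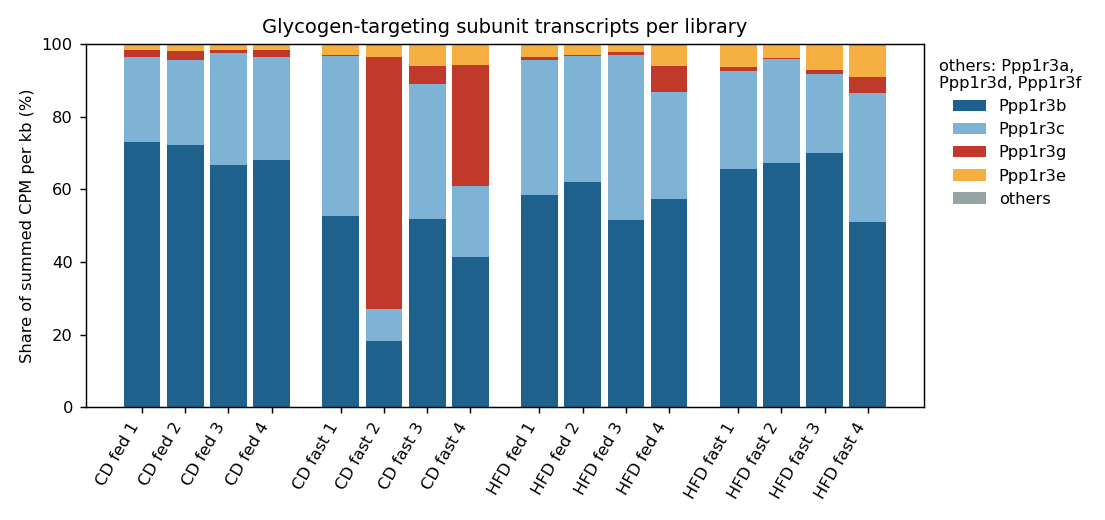
Share (%) of each glycogen-targeting subunit in the summed CPM per kb of exon of the 7 Ppp1r3 genes, 1 bar per library. *Ppp1r3g* (red) takes 69.3% in CD fast library 2 and 33.1% in CD fast library 4, and at most 6.93% in any HFD library.

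The remaining 3 genes passed no comparison. *Ugp2* (ENSMUSG00000001891, chr11:21321138-21371201, minus strand) was at 231 to 328 CPM in fed and 155 to 331 in fasted CD livers, and at 233 to 353 in fed and 179 to 300.2 in fasted HFD livers. Its log2 fold change after fasting was -0.22 (95% interval -0.69 to 0.26) in CD and -0.35 (-0.82 to 0.13) in HFD, and the intervals for the diet were -0.40 to 0.55 in fed and -0.53 to 0.42 in fasted livers. Falls of the size seen for *Pygl* after fasting (-1.51 and -1.01) lie outside these intervals. *Phka2* (ENSMUSG00000031295, chrX:160502166-160598878, plus strand) ranged only from 26.8 to 39.1 CPM over the 16 libraries, with log2 fold changes between -0.14 and 0.16. *Gyg* (ENSMUSG00000019528, chr3:20122084-20155317, minus strand) was low, at 3.66 to 7.31 CPM. Its levels were 3.68, 4.86, 3.66 and 3.96 CPM in CD fast and 4.60, 5.08, 5.30 and 7.31 CPM in HFD fast, with library 2 of CD fast inside the HFD range, and the log2 fold change of 0.47 (95% interval 0.15 to 0.78) had an adjusted p of 0.0680. *Gyg* passed in this comparison with total count scaling (0.0253), with DESeq2 (0.0347), with the library number as a block (0.0396) and without HFD fast library 1 (0.0463). *Ugp2* shares 78 exonic bases (2.54%) with *Gm12043* and *Phka2* 115 (1.90%) with *Gm15243*, both on the opposite strand, and reads there could be assigned to either since the strand setting of the counting is not given in the sources used here.

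In fed livers 1 of the 9 genes differed between diets (*Pygl*, lower), against 7.50% of all genes (3.28% higher, 4.22% lower in HFD). In fasted livers 1 of 9 differed (*Ppp1r3g*, lower), against 7.70% of all genes (3.05% higher, 4.65% lower). The median absolute log2 fold changes were 0.24 and 0.39 over the 9 genes and 0.17 and 0.19 over all genes. The 4 pairwise comparisons share groups, so that each library enters 2 of them. A test of the difference between the 2 fasting responses, the diet by fasting interaction, called 0 of the 9 genes with edgeR, against 2.59% of all genes (1.23% with a positive and 1.36% with a negative difference). At an unadjusted p under 0.05 it picked 5 of 9 (20.2% of all genes), DESeq2 called 2 (7.16% of all genes) and limma-voom 0 (2.37%). The 5 were *Gys2* (log2 difference -1.06, adjusted p = 0.119), *Pygl* (0.51, 0.137), *Ppp1r3b* (1.29, 0.189), *Ppp1r3g* (-4.14, 0.125) and *Gbe1* (0.63, 0.195). In each of the 5 the fasting difference in HFD was smaller in size than, or opposite in sign to, that in CD, but with edgeR the test of the difference did not pass for any of them. The 2 that passed with DESeq2 were *Gys2* (-1.07, adjusted p = 0.0392) and *Ppp1r3g* (-4.17, 0.0453). Without CD fast library 1, *Gys2* (adjusted p = 0.0381) and *Ppp1r3g* (0.0434) passed.

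A few livers were at the extremes of their group for many of the 9 genes. CD fast library 2 had the highest level of its group for *Gys2*, *Ppp1r3g*, *Gyg* and *Phka2* and the lowest for *Pygl*, *Ppp1r3b*, *Ppp1r3c*, *Gbe1* and *Ugp2*, which covers all 9 genes. HFD fed library 4 was highest for 3 genes (*Gys2*, *Ppp1r3g* and *Gyg*) and lowest for the other 6. HFD fast library 2 was highest for *Pygl*, *Ppp1r3b*, *Ppp1r3c*, *Gbe1* and *Ugp2* and lowest for *Ppp1r3g*. In CD fed, library 1 was lowest for 7 genes. It was highest in its group for the Kupffer cell marker *Adgre1* (42.3 CPM, at most 20.6 in the others) and for the endothelial *Lyve1* (16.7, at most 5.88). The endothelial *Clec4g* (52.5), *Kdr* (51.1) and *Oit3* (33.4) were lowest there. HFD fed library 4 was highest in its group for the cholangiocyte marker *Krt19* (10.5 CPM, at most 0.663 in the others). The same held for the stellate cell markers *Col1a1* (21.1, at most 3.45) and *Dcn* (174, at most 116) and for *Lyve1* (19.4, at most 8.99). The endothelial *Stab2* (55.6), *Clec4g* (49.7) and *Kdr* (37.7) and the cholangiocyte *Spp1* (18.8) were lowest in that library. The counts of extremes are over 4 livers per group and are given without a test. The part of these marker levels in the levels of the 9 genes was not tested.

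The synthase and phosphorylase isozymes that dominate other tissues were minor in these livers. *Gys1*, the muscle synthase, made up 0.48% to 0.69% of the synthase level per kilobase as a group mean, and *Gys2* the rest. *Pygl* made up 98.4% ± 0.48 of phosphorylase transcripts in fed and 96.6% ± 0.94 in fasted CD livers, and 98.0% ± 0.97 in fed and 95.6% ± 1.26 in fasted HFD livers (SD, n = 4). The brain form *Pygb* and the muscle form *Pygm* made up the remainder, with *Pygm* at most 1.196% in any library. *Phka2* held 76.4% to 82.5% of the alpha subunit level of phosphorylase kinase as a group mean, and *Phka1*, the muscle form, the rest (17.5% to 23.6%).

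Of 29 other genes of glycogen metabolism, 27 could be tested (*Ppp1r3a* and *Ppp1r1a* were too low). After fasting in CD 5 of them rose and 3 fell, and after fasting in HFD 1 rose and 1 fell. On HFD 1 was higher and 1 lower than on CD in fed livers, and 1 was higher and 2 lower in fasted livers. These shares of 29.6%, 7.41%, 7.41% and 11.1% stand against the 25.2%, 8.86%, 7.50% and 7.70% of all genes, and the list's median absolute log2 fold changes of 0.26, 0.14, 0.14 and 0.20 against 0.25, 0.19, 0.17 and 0.19. No gene of the list passed the interaction with edgeR (4 of 27 at an unadjusted p under 0.05, against 20.2% of all genes, and 3 of 27 with DESeq2, against 7.16%). When 1 library was left out, the count for fasting in HFD changed in 10 of 16 fits (range 0 to 2). For HFD in fed livers it changed in more than 10 (0 to 3) and for HFD in fasted livers in more than 4 (0 to 4). All of these counts fell to 0 in some fit, so the calls named below for them hang on single libraries.

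Among enzymes, *Gaa*, the lysosomal alpha-glucosidase that degrades glycogen by a separate route, rose from 109 to 165 CPM after fasting in CD (log2 fold change 0.60, adjusted p = 0.00228). *Gys1* rose from 2.65 to 3.86 CPM (0.54, adjusted p = 0.0217). Of the phosphorylase kinase subunits, *Phkb* fell after fasting in CD (-0.30, adjusted p = 0.00921) and was higher in HFD fast than in CD fast (0.28, 0.0319), and the catalytic *Phkg2* was lower in HFD fast than in CD fast (-0.31, 0.0318). *Calm2*, whose product calmodulin is a further subunit of that kinase, was lower in HFD fast than in CD fast (-0.31, 0.0447).

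On the phosphatase side, the targeting subunit *Ppp1r3e* rose after fasting in CD (log2 fold change 0.44, adjusted p = 0.0464) and was higher in HFD fed than in CD fed (0.54, 0.0440). The catalytic subunit gene *Ppp1cc* rose after fasting in CD (0.36, 0.00112), *Ppp1ca* was lower in HFD fed (-0.26, 0.0359) and the inhibitor *Ppp1r2* fell after fasting in HFD (-0.36, 0.0407). *Gsk3a*, a kinase that inactivates glycogen synthase, rose after fasting in CD from 49.5 to 59.3 CPM (0.26, 0.0282). *Nhlrc1*, the ubiquitin ligase malin, rose after fasting in HFD from 1.26 to 2.30 CPM (0.88, 0.0392).

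**Figure D5:**
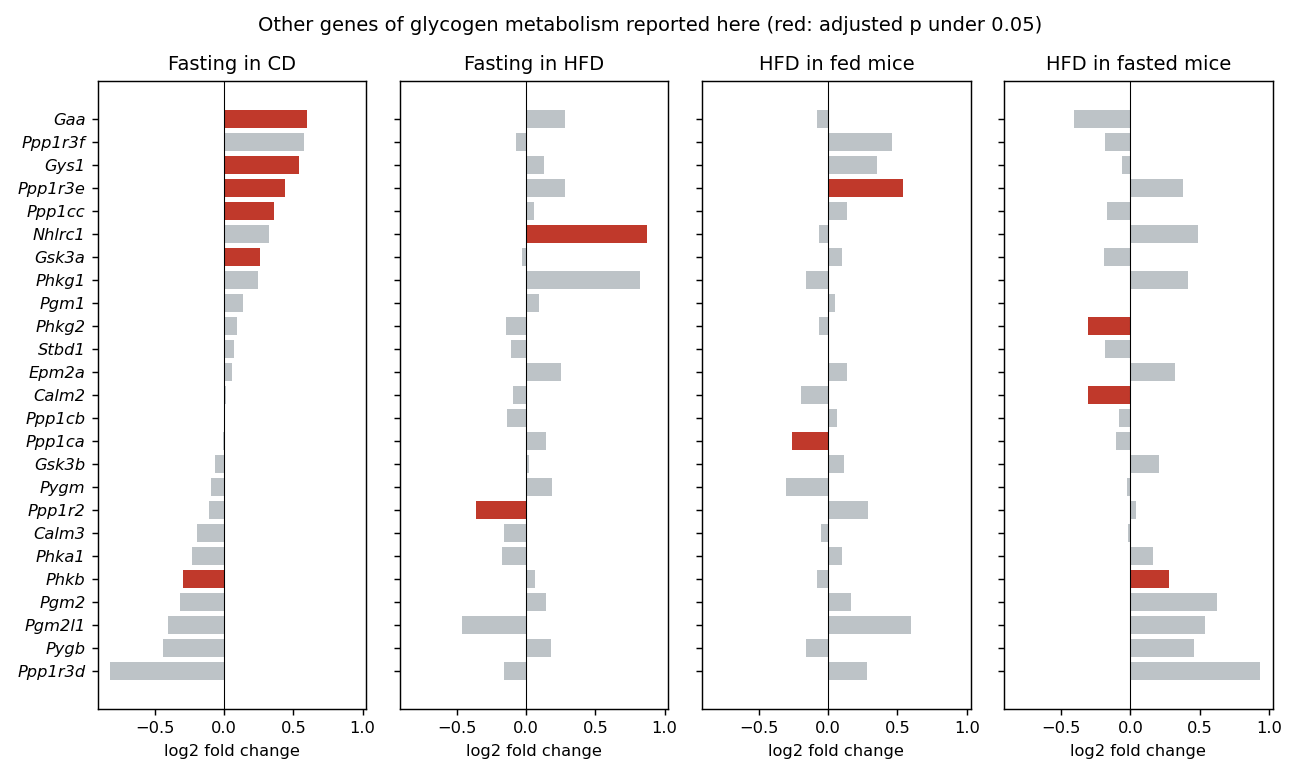
Log2 fold change of 25 other tested genes of glycogen metabolism in the 4 pairwise comparisons, ordered by the change after fasting in CD, in red where the edgeR adjusted p was under 0.05. After fasting in CD 5 of those shown rose and 1 fell, and the called changes in that panel lie between -0.30 and 0.60.

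Of 10 genes that set the supply of glucose 6-phosphate, from which glycogen is made, 1 rose and 5 fell after fasting in CD, 1 rose and 2 fell after fasting in HFD, 0 of 10 passed between diets in fed livers with edgeR (4 at an unadjusted p under 0.05, against 22.9% of all genes), and 2 were higher and 1 lower in HFD fast than in CD fast. These are 60%, 30%, 0% and 30% of the list, against 25.2%, 8.86%, 7.50% and 7.70% of all genes. *G6pc*, which releases free glucose, was lower in HFD fast (164 CPM) than in HFD fed (459 CPM; log2 fold change -1.49, adjusted p = 0.0259) and than in CD fast (537 CPM; -1.71, 0.0156). The glucose transporter *Slc2a2* fell after fasting in CD from 401 to 246 CPM (-0.70, adjusted p = 0.00113). *Hk3*, a hexokinase of blood cell lineages, fell after fasting in CD (-0.77, 0.0169), was higher in HFD fast than in CD fast (0.88, 0.0236) and passed the interaction (1.25, adjusted p = 0.0401).

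Of 33 genes of the hormone and cAMP signals that act on glycogen, 8 rose and 1 fell after fasting in CD and 1 rose after fasting in HFD. In HFD fed 1 was lower and in HFD fast 2 were lower than on CD. The shares of 27.3%, 3.03%, 3.03% and 6.06% stand against the same 25.2%, 8.86%, 7.50% and 7.70%. At an unadjusted edgeR p under 0.05 there were 15 of 33 (45.5%) for fasting in CD and 4 (12.1%) for fasting in HFD, against 37.6% and 25.6% of all genes. For the diet there were 5 (15.2%) in fed and 13 (39.4%) in fasted livers, against 22.9% and 25.9%. For the interaction there were 10 (30.3%), against 20.2%. *Adra1b*, the adrenergic receptor that raises calcium in hepatocytes, fell after fasting in CD from 75.8 to 33.6 CPM (-1.17, adjusted p = 0.000568), was lower in HFD fed (-0.72, 0.0331) and passed the interaction (1.21, 0.0299). *Pde4d*, a cAMP phosphodiesterase, rose after fasting in CD from 3.54 to 9.16 CPM (1.37, 0.000268). *Ppargc1a*, a fasting coactivator, rose in CD with overlapping libraries (1.24, 0.0287). *Irs2*, a substrate of the insulin receptor, was lower in HFD fast than in CD fast with overlapping libraries (-1.57, 0.0380).

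The genes most alike in pattern were taken among 10606 protein-coding genes with a mean of at least 100 counts, by Pearson's r of log2 CPM over the 16 libraries, which share their groups. For *Ppp1r3g* these were *Irs2* (r = 0.94, rho = 0.91), *Mknk2* (0.90) and *Fst* (0.89), and the r after subtraction of group means was 0.91, 0.91 and 0.88. In CD fast *Irs2* was at 13.6, 69.1, 24.4 and 44.2 CPM, in the same order of libraries as *Ppp1r3g*. For *Gys2* they were *Gpcpd1* (r = 0.92), *Ung* (0.89) and *Mknk1* (0.88), and for *Gbe1* *Gsta3* (0.95), *Thrsp* (0.95) and *Hibadh* (0.94). For *Pygl* they were *Gstm6* (0.97), *Cyp4f14* (0.96) and *Acaca* (0.96), of which *Acaca* had an r of only 0.34 after subtraction of group means. For *Ppp1r3b* they were *Cdc42ep4* (0.94), *Aars2* (0.93) and *Nit2* (0.93), and for *Ppp1r3c* *Yars2* (0.93), *Ola1* (0.92) and *Ugt2b36* (0.92). These r are the highest out of many and are given as a description.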

How the data were processed

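The authors deposited raw counts, whole numbers of reads per Ensembl gene, as 1 table of 16 libraries. The authors sequenced poly(A) libraries (NEBNext Ultra II, 100 base paired ends), aligned them as stranded (first-strand library type) to GRCm38 with TopHat2 2.0.11, used the Illumina iGenomes annotation and obtained gene counts with featureCounts. Which release this was, how featureCounts treated strand, and whether a pair counts once, is not given in the sources used here. RNA without a poly(A) tail is missed, and isoforms are not separated.

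Groups and numbers come from the labels. These do not say that libraries of a group are from separate animals, although each is taken here as 1 mouse, so p-values measure the spread between these samples. The 24 pairs of libraries within groups all differed beyond sampling noise (lowest chi-square per gene 37.6). Of 46078 genes, 45229 were matched to GENCODE vM21 for symbols, positions and lengths.

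Differential expression was tested with edgeR 4.0.16 (R 4.3.3). The 15075 genes kept by filterByExpr were TMM-scaled and entered a single model of all 16 libraries with the 4 groups as coefficients, with quasi-likelihood tests for the 4 pairwise comparisons and the interaction and a threshold of 0.05 on the Benjamini-Hochberg adjusted p. SE is the absolute log2 fold change over the square root of F, and a prior count of 2 was added for log2 CPM. The ratio of *Gys2* to *Pygl* used a pseudocount of 0.5 on the log2 scale and an exact two-sided permutation test.

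The 9 genes, the gene lists and the tests were chosen with earlier results of these data known. Named are the 9 genes in every comparison, each gene of the glycogen list called in any comparison, from the 2 other lists the 4 called genes with the largest pairwise change and a mean of at least 100 counts, and the 3 genes most alike in pattern to 6 of the 9. Results were recomputed with limma-voom (limma 3.58.1), the DESeq2 test (1.42.0), DESeq2 size factors, total counts and upper quartile scaling, no count filter and a CPM of at least 1 in 4 libraries, fits of just 2 groups, the library number as a block and leaving out libraries 1 at a time. Values of a few genes that this rule names are left out, but they count in the list totals. Tests were checked on simulated data.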

Additional observations from a re-analysis of the deposited data

Results flagged for a closer look

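A single library far from the other 3 of its group (gap to the nearest over the whole range, Dixon's 95% limit for 4 values) was found for *Pygl* in CD fed (0.864, library 1 at 585 CPM, below the others) and in CD fast (0.848, library 2 at 188 CPM, below the others). Chance marks about 1 in 20 of the groups looked at, which numbered 40.

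The fasting response differed between diets by the edgeR interaction test for *Hk3* (log2 difference 1.25, adjusted p = 0.0401) and for *Adra1b* (1.21, adjusted p = 0.0299), neither of which is among the 9 genes.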

How the results depend on the processing

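The changes of *Gys2*, *Pygl*, *Ppp1r3b* and *Gbe1* after fasting in CD, and of *Pygl* after fasting in HFD, kept their direction and passed the threshold in all 25 alternatives. With total counts, 2 of the 9 genes passed in HFD fast against CD fast, and 1, 9 and 2 of the 27 other glycogen genes passed for fasting in HFD, for HFD in fasted livers and for the interaction. This scaling shifts the median of all genes by 0.16 on the log2 scale in fasted livers and raises the share of higher calls there from 39.6% to 88.1% (44.3% against 54.4% for fasting in CD, 67.6% against 54.0% for fasting in HFD, 68.8% against 43.8% for HFD in fed livers, 69.5% against 47.4% for the interaction; upper quartile 51.2% in fasted livers). It turned the sign of small log2 changes, of *Phka2* in fed livers (0.031) and, in fasted livers, of *Pygl* (0.12), *Ppp1r3c* (0.086), *Ugp2* (0.11) and *Phka2* (0.019). Upper quartile scaling gave *Pygl* 0.00274 in fasted livers and called 1 glycogen gene for the interaction. The DESeq2 test called 2 of the 9 genes for fasting in HFD, for HFD in fasted livers and for the interaction, and 4, 6 and 3 other glycogen genes for HFD in fed livers, HFD in fasted livers and the interaction. With limma-voom 0 of the 9 passed in fasted livers, and *Ppp1r3c* was 0.12 there and 0.078 for the interaction. Without a count filter 0 glycogen genes passed for fasting in HFD, HFD in fed livers and HFD in fasted livers. In the fit of only 2 groups, 2 of the 9 genes (with *Gys2*, adjusted p = 0.0325) passed in fed livers, and 0 of the 9 and 0 other glycogen genes in fasted livers, where 90 genes passed in all against 1161.

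Whether the library numbers pair the samples was not settled. Same-numbered libraries of different groups had correlations of their deviations between -0.24 and 0.66, over 0.1 in 7 of 16 pairs. Between fed and fasted libraries of a diet these were all positive, 0.052 to 0.11 in CD and 0.058 to 0.66 in HFD. Differently numbered ones ran from -0.14 to 0.082 in CD and from -0.37 to 0.30 in HFD. Same-numbered libraries of the 2 diets had -0.24 to 0.21. With the number as a replicate block 2 of the 9 genes passed in fasted livers, *Gyg* among them (0.45, adjusted p = 0.0396), *Ppp1r3g* after fasting in CD did not (2.53, adjusted p = 0.0808), and *Ppp1r3c* was 0.073 in fasted livers and 0.037 for the interaction. For the ratio of *Gys2* to *Pygl* the block leaves the differences of 2.65, 1.09 and 1.08 as they are by construction, and an exact permutation by sign flips cannot go below the p = 0.125 it gave with 4 pairs, so it says nothing about stability.

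Leaving out each library in turn gave 1 to 2 of the 9 genes for fasting in HFD, 0 to 1 for HFD in fed livers, 0 to 2 for HFD in fasted livers, 0 to 2 for the interaction and 4 to 5 for fasting in CD. For the other glycogen genes it gave 5 to 9, 0 to 2, 0 to 3, 0 to 4 and 0 to 1 for the fast on CD, the fast on HFD, the diet in fed livers, the diet in fasted livers and the interaction, so that counts of 1 to 3 in that list hang on single libraries. The ratio after fasting in HFD was 0.89 to 1.30. Signs turned among values near 0: *Gyg* for fasting in CD (-0.11 to 0.027), *Gys2* for fasting in HFD (-0.029 to 0.27), *Ugp2* (-0.018 to 0.18), *Ppp1r3c* (-0.19 to 0.47) and *Phka2* (-0.10 to 0.012) for HFD in fed livers, *Pygl* (-0.14 to 0.025), *Ppp1r3c* (-0.41 to 0.43) and *Ugp2* (-0.23 to 0.12) for HFD in fasted livers, and *Ppp1r3c* (-0.62 to 0.23) and *Ugp2* (-0.30 to 0.041) for the interaction. The cause of these shifts was not tested. The lowest count behind a value of the 9 genes was 24, for *Ppp1r3g* in HFD fast library 2, and counting error weighs most there.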
